A study of Mus musculus with 8 samples.

Results

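The interferon response is the programme by which cells answer viral nucleic acid and the cytokines that neighbouring infected cells release. Interferons bind their receptors, Jak kinases phosphorylate Stat proteins, and a complex of Stat proteins with Irf9 binds interferon-stimulated response elements in the promoters of antiviral genes, while Stat dimers bind gamma-activated sites. The same signals raise the immunoproteasome, the peptide transporter and the class I molecules that show peptides to T cells, and neural cells keep most of this machinery at a low level until they are stimulated. The genes examined here are 43 members of this response, in groups of regulators, antiviral effectors, RNA sensors and Trim proteins, interferon-gamma GTPases, antigen presentation genes and chemokines. They were taken as all probes on the array whose symbol is one of these names, and 34 genes were found by that symbol and 7 more under an older symbol that names only 1 gene. Xaf1 and Gbp3 were not matched, so 41 genes with 67 of the 25697 probes were examined.

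STHdh cells are a conditionally immortalized line of mouse striatal progenitors made from embryonic tissue, and those used here carry wild-type huntingtin. In each of 4 samples the cells were transfected with pcDNA3.1 that carried mouse Bcl11b cDNA (beta isoform), and in each of 4 others, called mock here, with the empty pcDNA3.1 plasmid, which the labels also name wild-type. Both groups therefore received plasmid DNA and transfection reagent, and RNA was taken 2 days later from whole wells, which hold transfected and untransfected cells together. Each sample was hybridized to 1 Illumina MouseRef-8 v2 array, on which many beads carry each probe and the scanner software reports the average bead signal. The only Bcl11b probe was not detected on any array, so how strongly the plasmid was expressed cannot be read from them. A probe was called detected on an array when its detection p, which ranks its signal among those of negative control beads, was under 0.01, which between 10121 and 10784 probes reached on a mock array and between 10342 and 10644 on a Bcl11b array. The mock arrays were brighter before normalization, with median signals from 31.6 to 53.9 against 20.1 to 30.2. Values below are log2 of the quantile-normalized signal, and the dimmest detected signal lay between 6.19 and 6.59 on this scale, depending on the array. Of the markers fixed for the cells, Nes, Vim and Sox2 of 4 neural progenitor genes were detected on all arrays. Of 8 matched medium spiny neuron genes only Foxp1 was detected, and Ppp1r1b, Drd1a, Drd2, Tac1, Adora2a and Rgs9 were not. The smallest detection p was 0.01003 for Drd2 and 0.0163 for Ppp1r1b. By PCR, another measure, the paper found expression of Ppp1r1b, Rgs9 and Bcl11b in these cells, so not detected here does not mean absent. Of 5 matched fibroblast and mesenchymal genes Col1a1, Col3a1 and Pdgfrb were detected. Pdgfrb was lower on every Bcl11b array (log2 fold change -0.49, unadjusted p = 0.0142 and limma adjusted p = 0.309). Col1a1 differed by 0.22 and Col3a1 by -0.87, both with groups that overlap (limma adjusted p = 0.894 and 0.572). The part of these genes in the results below was not tested.

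Promoter windows of some members are shown first, each of which carries letters that interferon-responsive factors bind. Of the members called below at a limma adjusted p under 0.10, Cxcl10 is shown and Irf9 and Ifit2 are not. Isg15, B2m and Irf1 are shown but did not pass that threshold. Each window runs from 250 bases before to 50 bases after the start of transcription, in the direction of the gene, as RefSeq gives it for the GRCm38.p6 build. Isg15 (chr4:156200769-156201068, minus strand), Cxcl10 (chr5:92348840-92349139, minus strand) and B2m (chr2:122147437-122147736, plus strand) are printed with matches to the core of the interferon-stimulated response element, which is GAAA, any 2 bases and GAAA again, in capitals, and Irf1 (chr11:53769764-53770063, plus strand) with its gamma-activated site, TTCNNNGAA, in capitals.
Isg15: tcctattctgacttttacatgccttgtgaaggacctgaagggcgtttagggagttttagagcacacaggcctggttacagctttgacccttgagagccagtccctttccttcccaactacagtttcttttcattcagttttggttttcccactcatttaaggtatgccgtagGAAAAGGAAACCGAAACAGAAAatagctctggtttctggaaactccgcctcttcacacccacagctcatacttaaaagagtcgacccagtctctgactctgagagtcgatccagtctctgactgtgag
Cxcl10: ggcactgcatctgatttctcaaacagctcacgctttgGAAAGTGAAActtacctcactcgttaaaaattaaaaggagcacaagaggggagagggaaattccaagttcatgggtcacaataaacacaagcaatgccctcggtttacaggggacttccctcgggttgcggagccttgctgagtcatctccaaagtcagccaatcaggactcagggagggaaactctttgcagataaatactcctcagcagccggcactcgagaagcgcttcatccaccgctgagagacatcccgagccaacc
B2m: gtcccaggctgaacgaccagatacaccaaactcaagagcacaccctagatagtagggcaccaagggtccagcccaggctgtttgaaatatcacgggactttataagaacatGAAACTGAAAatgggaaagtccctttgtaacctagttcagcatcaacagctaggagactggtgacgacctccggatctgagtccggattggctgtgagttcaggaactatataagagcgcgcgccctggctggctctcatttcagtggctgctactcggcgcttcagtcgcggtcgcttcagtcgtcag
Irf1: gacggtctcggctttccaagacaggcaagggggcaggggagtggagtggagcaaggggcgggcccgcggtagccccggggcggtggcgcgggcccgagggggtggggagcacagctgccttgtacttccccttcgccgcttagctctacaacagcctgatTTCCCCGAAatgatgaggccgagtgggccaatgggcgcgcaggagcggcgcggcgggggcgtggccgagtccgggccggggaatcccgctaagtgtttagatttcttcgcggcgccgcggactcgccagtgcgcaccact
The Isg15 window holds 3 overlapping matches to the response element core, the first of which begins 78 bases before the start, while the Cxcl10 and B2m windows hold 1 each, beginning 213 and 139 bases before it. Searched on both strands, the core was present in a window of 16 of the 34 members with a promoter in the table (47.1%), against 3.99% of 27025 genes. The gamma-activated site, which reads the same on both strands, was present in 10 of the 34 members (29.4%), against 9.55% of all genes. No window of Irf1, Ifit2 or Irf9 held the response element core, and the gamma-activated site was found in 1 window each of Irf1 and Ifit2 and in none of Irf9. These matches describe the letters in the windows and are not evidence of binding. The members were listed as genes of this response, so a larger share than over all genes comes with the list.

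Of the 41 genes, 18 were detected on at least 1 array, 15 of them in both groups. Between the groups, Cxcl10 and Irf9 rose and Ifit2 fell in Bcl11b-transfected cells at an adjusted p under 0.10, by limma and the Benjamini-Hochberg method over all 25697 probes. The 3 calls make up 3 of 18 detected members, where 1.67% of the 11755 probes detected on at least 1 array (0.468% higher and 1.2% lower) and 0.981% of all probes were called. Every Bcl11b array lay above every mock array for 3 of the 18 (Irf9, Isg15 and Cxcl10) and below for 2 (Irf1 and Ifit2), against 2.97% and 7.09% of detected probes. Isg15 is among the 18 only because it was detected on Bcl11b arrays, where it is high. Its place in this count and the next is therefore no support. At an unadjusted p-value under 0.05, 6 of the 18 differed (33.3%), against 17.7% of detected probes and 10.4% of all probes. Of these 6, Cxcl10, Isg15, Irf9 and Adar were higher and Irf1 and Ifit2 lower in Bcl11b-transfected cells, so genes of the response did not move one way. Over all detected probes the balance was the opposite, with 5.16% higher and 12.5% lower. The members were chosen with earlier results of these data known, so these shares are a description and not a test. Among the 15 members detected in both groups, 12 had a higher and 3 a lower mean with Bcl11b, and the median log2 fold change was 0.35, against -0.010 for the 10918 probes detected in both groups. These directions are relative to the other genes, since without normalization, where the median over all probes was -0.49, 2 of the 15 were higher and 13 lower, with a median of -0.39. In RNA from whole wells, fewer cells that express a gene and less RNA of it per cell cannot be told apart.

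**Figure D1:**
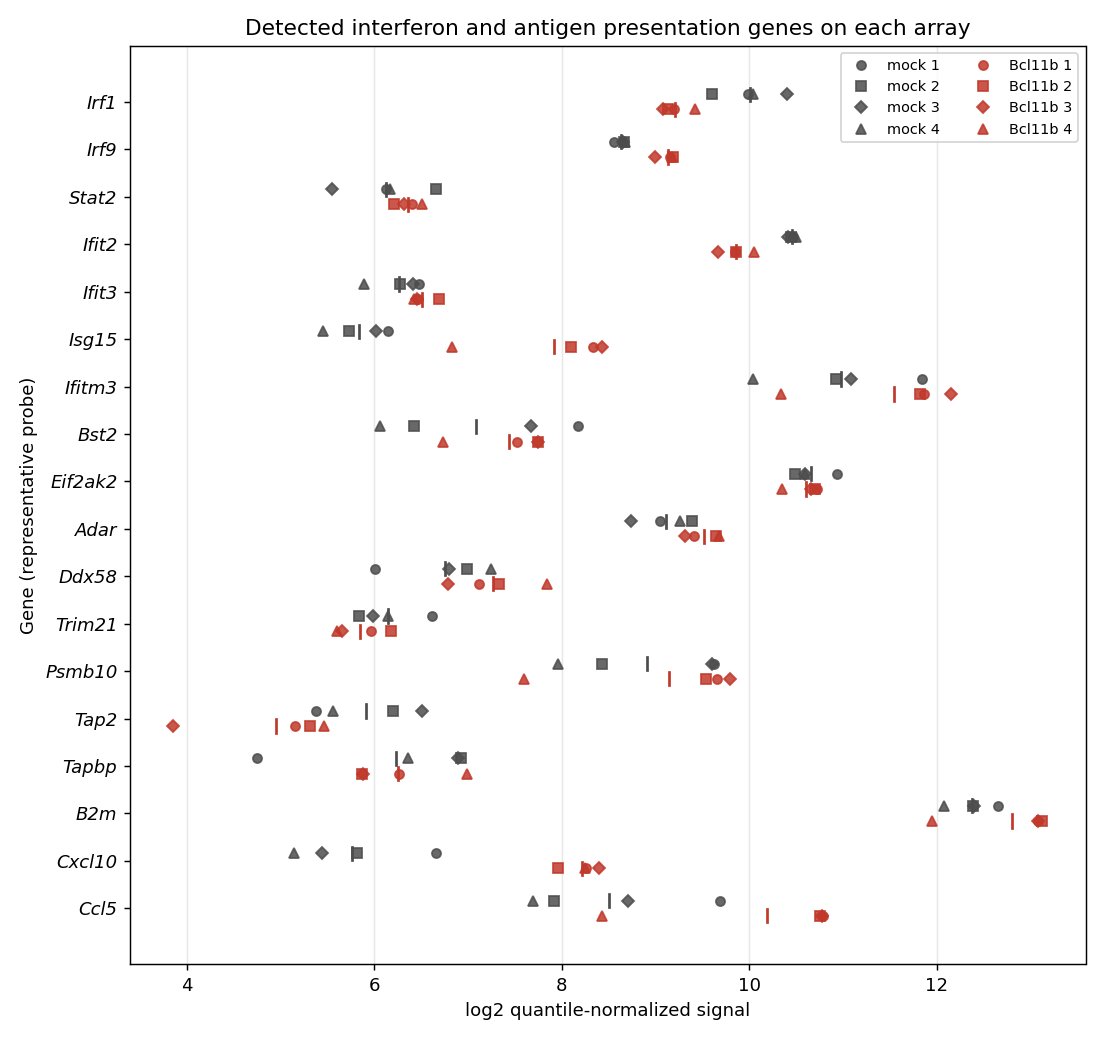
Log2 quantile-normalized signal (x axis) of the 18 detected members (y axis, by role) on each of the 4 mock and 4 Bcl11b arrays, with the symbol giving the replicate and the vertical tick the group mean. The groups do not overlap for Irf1, Irf9, Ifit2, Isg15 and Cxcl10, and for Ifitm3, Bst2, Ddx58, Psmb10, Tap2, Tapbp and Ccl5 the arrays of each group span more than 1 log2 unit.

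The chemokines were the members with the largest mean differences among those detected in both groups. Cxcl10, which attracts activated T cells and is a direct target of interferon signalling, had log2 signals of 6.66, 5.81, 5.44 and 5.15 on mock arrays 1 to 4 and of 8.26, 7.96, 8.40 and 8.25 on Bcl11b arrays 1 to 4. All 4 Bcl11b arrays lay above all 4 mock arrays, and the gene was detected on every Bcl11b array but on mock array 1 only. The fitted log2 fold change was 2.45 (standard error, SE, 0.33, limma adjusted p = 0.055), and with undetected mock signals raised to the dimmest detected signal of their array the difference was still 3.68-fold. Ccl5, a chemokine for T cells and monocytes, had log2 signals of 9.69, 7.92, 8.71 and 7.70 on the mock arrays and of 10.79, 10.76, 10.78 and 8.43 on the Bcl11b arrays. Bcl11b array 4 stood more than 2 log2 units below the other Bcl11b arrays and within the mock range, so the groups overlapped. The log2 fold change of 1.68 (SE 0.72) did not pass, with an adjusted p of 0.493 and an unadjusted p of 0.0544 from limma. Without Bcl11b replicate 4 it was 2.28 with an unadjusted p of 0.00583 and a limma adjusted p of 0.19, without mock replicate 1 it was 2.07 with an unadjusted p of 0.0302, and with any other array left out it was 1.43 to 1.75 with an unadjusted p of at least 0.0871.

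The regulators of the response did not move together. Irf9, the DNA-binding subunit of the factor that type I interferon activates, had log2 signals of 8.55, 8.66, 8.66 and 8.68 on the mock arrays and of 9.16, 9.19, 8.998 and 9.17 on the Bcl11b arrays. It was the member with the least spread within groups beside a clear gap between them, and it rose by 0.49 on the log2 scale (SE 0.051, limma adjusted p = 0.0277), or 1.41-fold. Without normalization between arrays its log2 fold change was -0.21, so its rise is relative to the other genes. A second, dimmer Irf9 probe was detected only on Bcl11b array 4. Irf1, a transcription factor that interferon-gamma and NF-kB induce within hours and that drives class I and chemokine genes, had log2 signals of 9.99, 9.60, 10.40 and 10.05 on the mock arrays and of 9.19, 9.13, 9.08 and 9.42 on the Bcl11b arrays. No Bcl11b array reached the lowest mock array, with a log2 fold change of -0.80 (SE 0.17), an unadjusted p of 0.00312 and a limma adjusted p of 0.176, which misses the threshold. The other Irf1 probe detected on all arrays had a smaller difference of -0.27 (limma adjusted p = 0.663), with groups that overlap. Stat2, the partner of Irf9, was near the detection limit, with log2 signals of 6.13, 6.66, 5.55 and 6.17 on the mock arrays and of 6.41, 6.21, 6.32 and 6.52 on the Bcl11b arrays, and the groups overlapped (limma adjusted p = 0.803). Irf7, the amplifier of type I interferon production, was not detected on any array.

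**Figure D2:**
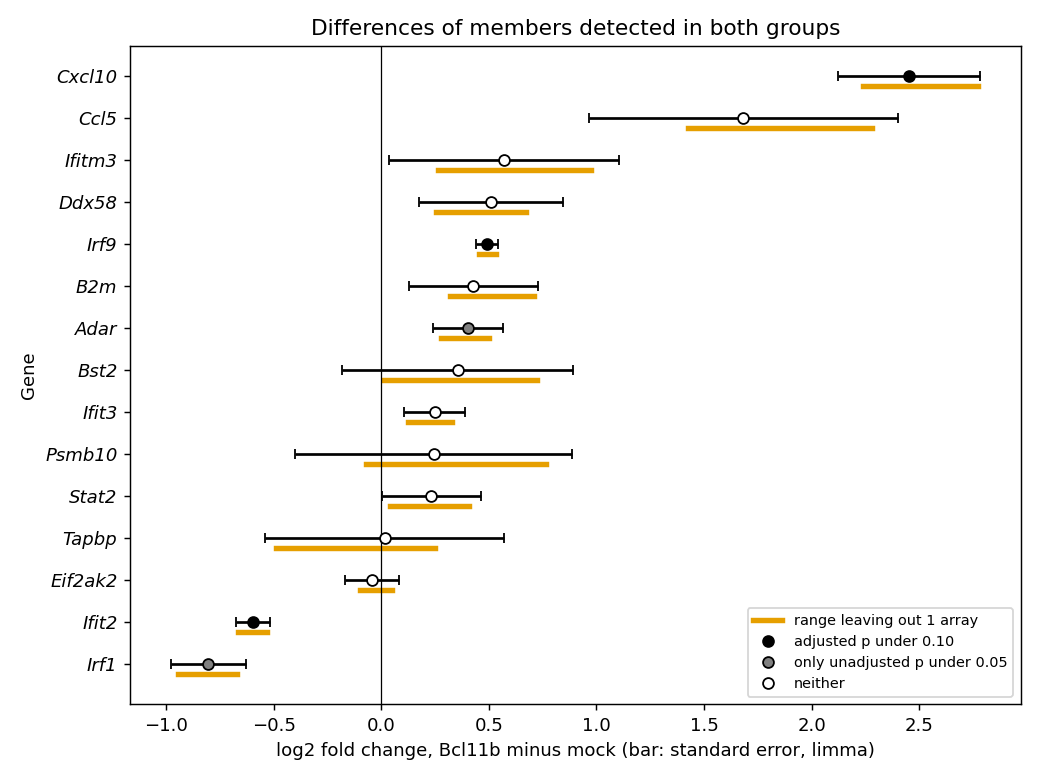
Log2 fold change, Bcl11b minus mock, of the 15 members detected in both groups (points, with the limma SE as bars), with the range over the 8 fits that leave out 1 array below each. Cxcl10 and Irf9 on the right and Ifit2 on the left passed an adjusted p-value of 0.10, and the ranges of Psmb10, Tapbp and Eif2ak2 span 0.

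Among the antiviral effectors, Ifit2 and Isg15 differed in opposite directions. Ifit2, which binds viral RNA and restrains its translation, had log2 signals of 10.46, 10.45, 10.41 and 10.50 on the mock arrays and of 9.85, 9.86, 9.67 and 10.06 on the Bcl11b arrays. It fell by 0.60 on the log2 scale (SE 0.078, limma adjusted p = 0.0518), or 1.51-fold, with every Bcl11b array below every mock array. A second Ifit2 probe had the same difference of -0.60 and separated the groups as well, with a larger SE of 0.15 (limma adjusted p = 0.223). Isg15, a ubiquitin-like protein that is attached to viral and host proteins, had log2 signals of 6.14, 5.73, 6.02 and 5.45 on the mock arrays and of 8.33, 8.10, 8.43 and 6.83 on the Bcl11b arrays. It was detected on no mock array and on all 4 Bcl11b arrays. Their mean was at least 3.03-fold higher against the dimmest detected signal of the mock arrays. That bound is of the mean only, as Bcl11b array 4, at 6.83, lay closer to the limit of 6.32. Bcl11b array 4 lay well below the other Bcl11b arrays, and the adjusted p of 0.124 from limma misses the threshold, while the unadjusted p was 0.00142. Without Bcl11b replicate 4 the adjusted p was 0.021, and with any other array left out it was between 0.14 and 0.334.

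The remaining detected effectors did not pass the adjusted threshold. Adar, which deaminates adenosines in double-stranded RNA, had log2 signals of 9.05, 9.39, 8.74 and 9.26 on the mock arrays and of 9.41, 9.65, 9.32 and 9.68 on the Bcl11b arrays. The difference of 0.40 (SE 0.16) had an unadjusted p of 0.0459 and a limma adjusted p of 0.468, and it became -0.28 without normalization between arrays. The other Adar probes had differences of 0.32 and -0.036, so they disagree in direction. Eif2ak2, the kinase that halts translation when it binds double-stranded RNA, had log2 signals of 10.93, 10.48, 10.60 and 10.60 on the mock arrays and of 10.73, 10.70, 10.66 and 10.35 on the Bcl11b arrays, a difference of -0.043 (SE 0.13). Ifitm3, which blocks viral fusion in endosomes, had log2 signals of 11.85, 10.92, 11.09 and 10.04 on the mock arrays and of 11.87, 11.82, 12.15 and 10.34 on the Bcl11b arrays. The replicates of 1 group thus differed by more than the group means, which were 0.57 apart (limma adjusted p = 0.802). Bst2, which tethers budding virus to the cell, had log2 signals of 8.17, 6.42, 7.67 and 6.06 on the mock arrays and of 7.52, 7.74, 7.75 and 6.74 on the Bcl11b arrays, and its highest value was on a mock array. Ifit3, a partner of the other Ifit proteins, stayed close to the detection limit, with log2 signals of 6.48, 6.27, 6.41 and 5.89 on the mock arrays and of 6.47, 6.70, 6.45 and 6.42 on the Bcl11b arrays (limma adjusted p = 0.663).

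The RNA sensors and Trim proteins gave no call. Ddx58, which encodes RIG-I, the sensor of short viral RNA with a triphosphate end, had log2 signals of 6.003, 6.99, 6.80 and 7.24 on the mock arrays and of 7.12, 7.33, 6.79 and 7.84 on the Bcl11b arrays, and the difference of 0.51 (SE 0.34) lay within the spread of the arrays (limma adjusted p = 0.724). Trim21, a cytosolic antibody receptor, was detected by its brightest probe on mock array 1 only. That probe had log2 signals of 6.62, 5.83, 5.99 and 6.15 on the mock arrays and of 5.97, 6.18, 5.65 and 5.61 on the Bcl11b arrays. A second Trim21 probe was detected on mock array 4 only, with a log2 signal of 6.35, so no fold change is given. Ifih1, which encodes the sensor of long double-stranded RNA, its cofactor Dhx58, and Trim25, which ubiquitinates RIG-I, were not detected on any array.

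The antigen presentation genes gave no call either. B2m, the light chain of every class I molecule, was the brightest member, with log2 signals of 12.66, 12.39, 12.40 and 12.08 on the mock arrays and of 13.08, 13.13, 13.08 and 11.95 on the Bcl11b arrays. Bcl11b arrays 1 to 3 lay above all mock arrays and Bcl11b array 4 below all of them. The log2 fold change was 0.43 (SE 0.30, limma adjusted p = 0.754), and without Bcl11b replicate 4 it was 0.71 with an unadjusted p of 0.00265 and a limma adjusted p of 0.141, while with any other array left out it was 0.32 to 0.53 with an unadjusted p of at least 0.177. The other detected B2m probe gave 0.34 and the same order of Bcl11b array 4. Psmb10, an inducible catalytic subunit of the immunoproteasome, had log2 signals of 9.63, 8.43, 9.60 and 7.97 on the mock arrays and of 9.66, 9.54, 9.80 and 7.60 on the Bcl11b arrays. The difference between arrays of 1 group reached about 2 log2 units, beside a difference of 0.24 between the group means (SE 0.65, limma adjusted p = 1). Tapbp, which holds empty class I molecules at the peptide transporter, had log2 signals of 4.75, 6.93, 6.89 and 6.36 on the mock arrays and of 6.26, 5.87, 5.88 and 6.99 on the Bcl11b arrays, and was detected on 3 mock arrays and 1 Bcl11b array. Tap2, a subunit of that transporter, was detected on mock arrays 2 and 3 and on no Bcl11b array, with log2 signals of 5.38, 6.21, 6.51 and 5.56 on the mock arrays and of 5.15, 5.32, 3.86 and 5.46 on the Bcl11b arrays, and the groups overlapped. Its partner Tap1 and the other immunoproteasome subunits, Psmb8 and Psmb9, were not detected on any array.

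A total of 23 matched members were not detected on any array, among them all 4 matched interferon-gamma GTPases (Gbp2, Igtp, Ifi47 and Iigp1) and the effectors Ifit1, Mx1, Mx2, Oas1b, Oasl1, Oasl2, Rsad2, Usp18, Isg20, Ifi35, Ifi44 and Parp14. Fold changes of such probes lie within the background and are not given. Even so, 6 of the 23 (Usp18, Dhx58, Mx2, Oasl1, Rsad2 and Gbp2) had an unadjusted p under 0.05 from limma, all 6 higher with Bcl11b, where 4.22% of the 13942 undetected probes had such a p 2.27% higher and 1.94% lower. In 5 of the 23 (all of these but Rsad2) every Bcl11b array lay above every mock array, against 1.28% of undetected probes, and in none was it the reverse (0.99%). Usp18, which removes Isg15 from proteins and dampens the type I receptor, had deposited signals of -17.4, -0.897, 2.24 and 15.6 on the mock arrays and of 33.9, 32.9, 27.7 and 45.5 on the Bcl11b arrays. Its smallest detection p was 0.0251 on a Bcl11b array and 0.214 on a mock array. On the probe that represents each gene, none of the 23 passed the adjusted threshold, the smallest adjusted p from limma being 0.121, for Dhx58. Over all undetected probes, 0.402% passed. Another, dimmer probe each of Usp18 and Oasl1, also undetected, did pass (limma adjusted p = 0.0558 and 0.0667). On both of these probes every Bcl11b array lay above every mock array. They are not among the calls given above, which are of detected members. On that Usp18 probe, and on the probe that represents Gbp2, all 4 mock signals were negative and were raised to 1 before the log. The mock arrays thus had no spread there, which makes the p-values of these probes less reliable.

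**Figure D3:**
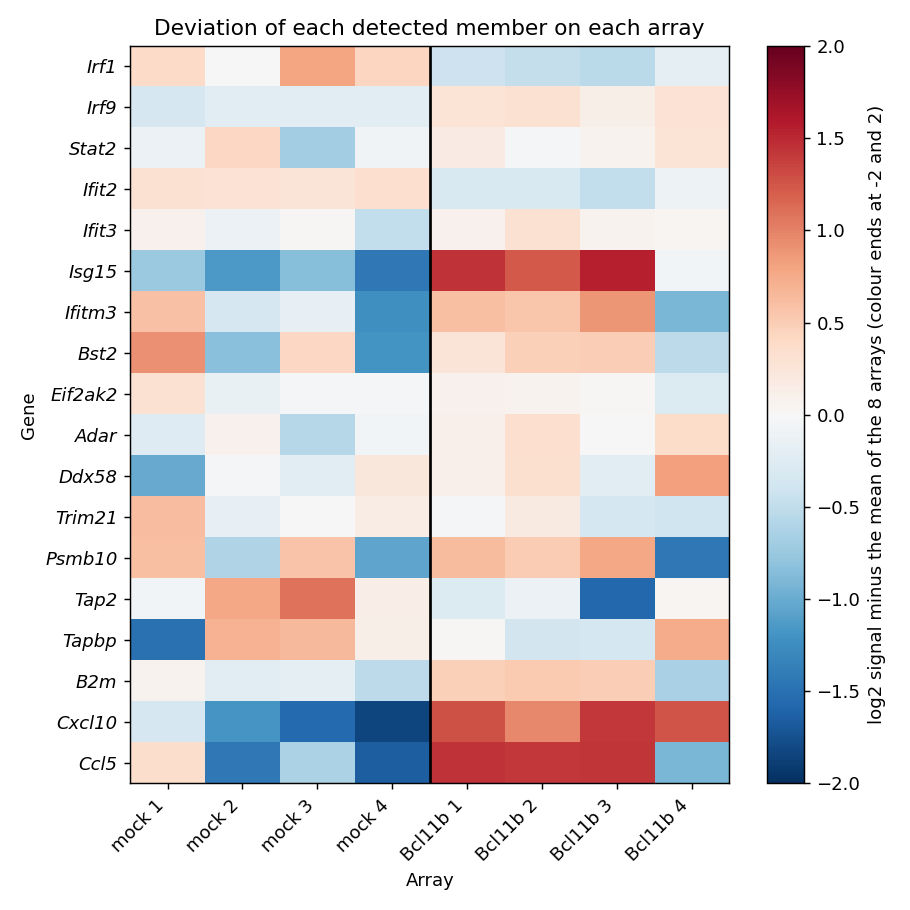
Log2 signal of each detected member (rows) on each array (columns) minus the gene's mean over the 8 arrays, in colour from -2 (blue) to 2 (red), with the line dividing mock from Bcl11b arrays. Isg15, Cxcl10 and Ccl5 are red on Bcl11b arrays 1 to 3, and on Bcl11b array 4 Ccl5, Psmb10, Ifitm3 and B2m are blue while Cxcl10 stays red.

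Single arrays shaped several of these values. Bcl11b array 4 had the lowest or the highest signal of its group in 13 of the 15 members detected in both groups (86.7%), close to the 79.8% of all 10918 probes detected in both. It was lowest for 7 members (46.7%, against 30.0% of all probes) and highest for 6 (40.0%, against 49.8%), namely Irf1, Stat2, Ifit2, Adar, Ddx58 and Tapbp. In 6 members (Ifit3, Ifitm3, Bst2, Psmb10, B2m and Ccl5) both Bcl11b array 4 and mock array 4 were the lowest of their groups (40.0%), against 1529 of the 10918 probes. The average of the 15 members, as a deviation from their mean over the arrays, was 0.0033, -0.24, -0.11 and -0.48 log2 units on mock arrays 1 to 4 and 0.32, 0.31, 0.28 and -0.081 on Bcl11b arrays 1 to 4. Bcl11b array 4 thus lay below mock array 1 in this average, although its Cxcl10 signal was as high as on the other Bcl11b arrays. The median distance between the highest and the lowest mock array was 1.11 log2 units over the 15 members, against 0.67 over all probes detected in both groups, and for the Bcl11b arrays it was 0.44 against 0.53. The labels give these arrays no condition of their own, and a cause of the pattern was not tested.

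Macrophages and microglia are rich in interferon-stimulated transcripts, and their markers were therefore examined. Of 8 markers only Cd68 was detected, on 2 Bcl11b arrays, and Aif1, Emr1, Csf1r, Tyrobp, Ptprc, Itgam and Cx3cr1 were not. Cd68 lay higher on all 4 Bcl11b arrays (unadjusted p = 0.00386 and limma adjusted p = 0.187), and the summed signal of the 8 markers was 56.9 to 103 with mock and 86.1 to 162 with Bcl11b transfection. Cd68 had the highest mean log2 signal of the 8 in both groups (5.14 and 6.49), so the sum is not independent of it. Of the undetected markers, Aif1 and Emr1 had a higher mean with Bcl11b. Csf1r, Tyrobp, Ptprc and Cx3cr1 had a lower mean, and Itgam did not differ. The part of Cd68-expressing cells in the values above was not tested.

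The upstream and neighbouring genes of the pathway were taken from a list of 107 names, of which 97 were matched and 49 detected on at least 1 array. One passed the adjusted threshold, and 13 of the 49 (26.5%) had an unadjusted p under 0.05, 4 higher and 9 lower with Bcl11b, beside the shares of detected probes given above. None of the 7 matched interferon genes was detected. Of 8 detected receptor and kinase genes, Tyk2, a kinase of the type I receptor, went from 9.08 ± 0.41 (SD, n = 4 arrays) to 8.25 ± 0.12 (SD, n = 4) in log2 signal, with no overlap and a limma adjusted p of 0.222. Il10rb, a receptor chain shared with interferon-lambda, went from 7.93 ± 0.59 (SD, n = 4) to 6.70 ± 0.53 (SD, n = 4), with a limma adjusted p of 0.335 and groups that overlap. Ifnar2, a chain of the type I receptor, was higher by 0.27 (unadjusted p = 0.025 and limma adjusted p = 0.375). Irf3, which switches on interferon genes, differed by -0.073 (SE 0.12, limma adjusted p = 0.989), with groups that overlap.

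Of the transcription factors, adaptors and feedback genes, 14 were detected and 5 of them had an unadjusted p under 0.05, each lower with Bcl11b, as were 12.5% of all detected probes, where 5.16% were higher. Irf2, an antagonist of Irf1, differed by -0.42 (SE 0.12, limma adjusted p = 0.301), and Socs3, a feedback inhibitor of Jak kinases, by -0.68 (SE 0.18, limma adjusted p = 0.234), with all 4 Bcl11b arrays of Socs3 below the mock arrays. Myd88, an adaptor of Toll-like receptors, differed by -0.27 (limma adjusted p = 0.431). Its unadjusted p stayed under 0.05 in 6 of 16 alternatives, and those of the adaptors Tbk1 and Mavs in 8 and 6. The gene that passed was H2-T23, a nonclassical class I heavy chain, which rose by 0.40 on the log2 scale (SE 0.065, limma adjusted p = 0.0811). It kept an adjusted p under 0.10 in 4 of 16 alternatives and changed direction without normalization. Its log2 signals were 7.51, 7.60, 7.59 and 7.36 on the mock arrays and 7.85, 7.90, 8.02 and 7.87 on the Bcl11b arrays. Class I genes are close copies of each other, so the signal of a probe may come from more than 1 of them, and H2-K1 differed by 0.28 with groups that overlap. Tapbpl, a relative of Tapbp that edits class I peptides, was lower by a log2 fold change of -0.65 (SE 0.15, limma adjusted p = 0.187), with no overlap, and Psmb7, the constitutive counterpart of Psmb10, was higher by 0.42 (limma adjusted p = 0.415). Gbp4 was detected on 3 Bcl11b arrays and no mock array, and its mean on the Bcl11b arrays exceeded the mock level at least 1.38-fold (limma adjusted p = 0.201). Its symbol is also listed as an older name of Gbp3.

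**Figure D4:**
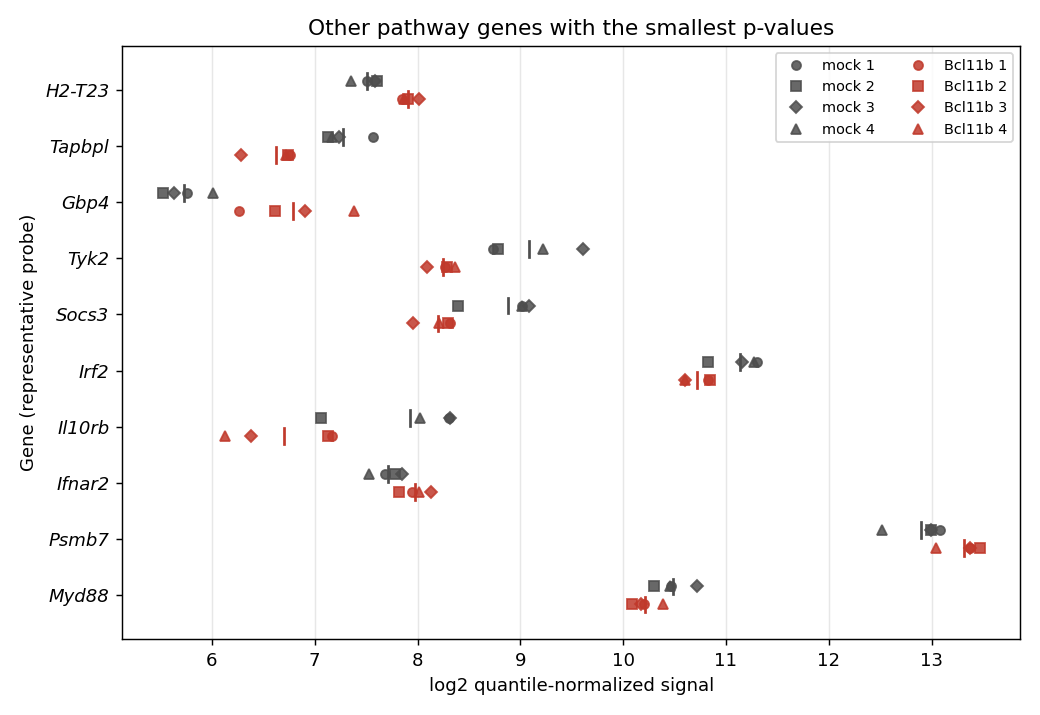
Log2 quantile-normalized signal (x axis) of the 10 other pathway genes with the smallest p-values (y axis, smallest at the top) on each mock and Bcl11b array, with the replicate as the symbol and the group mean as a tick. The groups are apart for H2-T23, Tapbpl, Gbp4, Tyk2 and Socs3 and overlap for the other 5.

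The 3 calls among the members depend on the fit. Irf9 kept an adjusted p under 0.10 in each of the 8 fits that leave out 1 array, with log2 fold changes from 0.46 to 0.54 and adjusted p-values of at most 0.0997, and lost it in 5 of the other 8 alternatives, which included division by the array median, no normalization, removal of undetected probes and limma-trend. Of the same 8, Ifit2 lost it in 4 and Cxcl10 in 3, limma-trend and no normalization among them. With 1 array left out, Ifit2 lost it without mock replicate 1, 3 or 4 or Bcl11b replicate 1 or 2, and Cxcl10 without mock replicate 3 or 4 or any Bcl11b replicate, with log2 fold changes from -0.67 to -0.53 and from 2.24 to 2.77 and limma adjusted p-values of at most 0.174 and 0.183. Over 16 alternatives the unadjusted p of Ifit2, Cxcl10, Isg15 and Irf1 stayed under 0.05 in all 16, and that of Irf9 in 15.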

How the data were processed

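RNA of 4 Bcl11b-transfected and 4 mock-transfected samples was profiled, with groups and replicate numbers taken from the labels. The authors deposited the average bead intensity of each probe from GenomeStudio, with background subtracted and not normalized between arrays, which left 30.6% to 31.6% of values on each array at or below 0. They also deposited a detection p-value of each probe against the negative control beads. No probe had the same signal on any pair of arrays.

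After quantile normalization, values under 1 were raised to 1, and log2 values were fitted with limma (version 3.58.1, R 4.3.3, lmFit and eBayes) over all 25697 probes without covariates, with Benjamini-Hochberg adjustment. On simulated data with 200 probes changed by 1 on the log2 scale among 25697, 77 (38.5%) were recovered with 12 false calls. The changed probes were drawn from those detected on every array, and the noise was independent between probes. The share recovered therefore does not describe dimmer members or an array that stands apart for many genes. A gene was represented by its probe with the highest mean signal, and other detected probes were compared with it. A probe detected on no array of 1 group was given a lower bound, from the dimmest detected signal of each array. Every member detected on at least 1 array is named. Of the other pathway genes, at most the 10 with the smallest unadjusted p under 0.05 were to be named. Beyond these, the text names Tbk1 and Mavs, and a few genes chosen after their values were seen (Irf3, H2-K1, Psme2, Irgm1 and Ifitm2). Promoters are from RefSeq, matched by symbol. The members and lists were chosen with earlier results of these data known. Replicates are separate sets of transfected cells, and the number of arrays limits the precision. Alternatives were division by the array median, no normalization, neqc, an offset of 16, a filter on detection under 0.01 on at least 4 arrays, a replicate block, limma-trend with robust eBayes, arrayWeights and leaving out each array.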

Additional observations from a re-analysis of the deposited data

Results flagged for a closer look

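In 36 groups of 4 arrays, for the 18 detected members, the lowest or highest array was compared with the nearest of the others, and 6 groups held an array far from the rest, where chance gives about 1 in 20. Bcl11b replicate 4 was the low array in 4 of them, with log2 signals of 8.43 for Ccl5 (the next array at 10.76), 11.95 for B2m (next 13.08), 7.60 for Psmb10 (next 9.54) and 10.35 for Eif2ak2 (next 10.66). For Irf9, whose arrays lay close together, mock replicate 1 (8.55) and Bcl11b replicate 3 (8.998) were the low arrays of their groups. The members share the array, so the 4 values of Bcl11b replicate 4 are not independent of each other.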

How the results depend on the processing

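The main counts were 3 members past an adjusted p of 0.10 and 6 past an unadjusted p of 0.05. With limma the first count was 1 with each array divided by its median, 0 without normalization, 5 with neqc, 0 with the replicate block, 0 under limma-trend and 5 with arrayWeights, and with 1 array left out it ran from 1 to 4. At an unadjusted p under 0.05 the counts were 7 without normalization (2 higher and 5 lower, against 4 and 2 with it), 7 with the block and 6 under limma-trend, and with 1 array left out they ran from 5 to 7. The median log2 fold change of 0.35 became -0.39 without normalization, where the median of all probes was -0.49, and ran from 0.24 to 0.44 with 1 array left out. Without normalization, 10 of the 12 members with a higher mean turned lower. They were Irf9 (-0.21), Adar (-0.28), Stat2, Ifit3, Ifitm3, Bst2, Ddx58, Psmb10, Tapbp and B2m. The cause was not tested beyond the shift in the median of all probes. With the block, 45 instead of 252 of all probes passed, and the adjusted p was 0.188 for Irf9, 0.180 for Ifit2 and 0.224 for Cxcl10, and over all alternatives it ranged from 0.0134 to 0.641, 0.0199 to 0.180 and 0.0102 to 0.224. The labels do not say whether the replicate numbers pair the samples, and the values do not settle it. Deviations of same-numbered arrays correlated at 0.68, -0.63, 0.18 and 0.70 for numbers 1 to 4. Arrays of unlike number also correlated, such as mock array 1 with Bcl11b array 2 at 0.58. Signals near the background limit the 23 undetected members.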

Other observations

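Psme2, Irgm1 and Ifitm2, among the other pathway genes, were also lowest of their group on Bcl11b replicate 4. That array was the lowest of its group for 30.0% of all 10918 probes detected in both groups. The share among the other pathway genes is not given here. Psme2, a subunit of the proteasome activator that interferon induces, had log2 signals of 7.81, 6.60, 7.66 and 6.92 on the mock arrays and of 8.16, 8.12, 8.20 and 6.02 on the Bcl11b arrays. Irgm1, an interferon-inducible GTPase of autophagy, had log2 signals of 12.27, 12.25, 12.28 and 12.39 on the mock arrays and of 13.22, 13.41, 13.01 and 12.10 on the Bcl11b arrays, so 3 Bcl11b arrays lay above all mock arrays and 1 below them. Ifitm2, a close relative of Ifitm3, went from 11.85, 10.71, 11.19 and 9.97 on the mock arrays to 11.74, 11.68, 11.68 and 10.07 on the Bcl11b arrays. These genes were chosen after their values were seen, and none differed between the groups at an unadjusted p under 0.05.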
